A study of Mus musculus with 32 samples.

Results

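The 78 mouse genes for mitochondrial ribosomal proteins were followed through all 8 groups of muscle and genotype. They are the entries of the count table whose Ensembl identifier maps to a protein-coding gene with a symbol starting with Mrpl or Mrps, 78 of the 55487 genes in the table. There were 49 Mrpl and 29 Mrps genes, spread over 17 chromosomes. The symbols do not always follow the subunit: Mrps30 and Mrps18a sit in the large subunit, and Mrps36 is now known as a component of the 2-oxoglutarate dehydrogenase complex, so that 51 members belong to the large subunit, 26 to the small one and 1 to neither.

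Mitochondria carry their own ribosome, the mitoribosome, which translates the few proteins encoded by mitochondrial DNA, all of them parts of the oxidative phosphorylation machinery. Its RNA is transcribed inside the organelle, whereas all of its proteins are encoded by nuclear genes, made in the cytosol and imported. Some of these proteins have counterparts in the bacterial ribosome and others exist only in mitochondria. Slow, oxidative muscle fibres are rich in mitochondria and depend on this translation more than fast, glycolytic fibres.

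PolyA RNA was sequenced from whole muscles of 16 mice, 4 of each genotype, which gave 32 libraries in 8 groups of 4. In double KO mice both Acvr1b and Tgfbr1 were deleted in myofibres, in Acvr1b KO mice only Acvr1b, in Tgfbr1 KO mice only Tgfbr1, and control mice carried neither deletion. Acvr1b encodes the activin type I receptor ALK4 and Tgfbr1 the TGF-beta type I receptor ALK5, both of which pass on signals of the myostatin, activin and TGF-beta family. Deletion was induced by tamoxifen injection at 6 weeks of age, and the left soleus, a slow muscle, and the left gastrocnemius medialis, a fast muscle, were taken from the same mice 3 months later. The Cre driver, the sex and strain of the mice and whether control mice received tamoxifen are not given in the sources used here. The animal numbers of the double KO mice fall outside those of the other 3 genotypes, and those of control mice do not overlap those of the single knockouts. A difference of cohort and one of genotype cannot be told apart.

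Libraries held 16535498 to 54456977 counts. Levels below are CPM (counts scaled to library size) with 1 set of TMM scaling factors over the 32 libraries, and between genes they are compared as CPM per kilobase of exon. In gastrocnemius, Acvr1b had 14 to 23.3 CPM in double KO and 23.7 to 27.2 CPM in Acvr1b KO, against 94.2 to 117 CPM in control. Tgfbr1 was not lower in the libraries labelled as its knockouts (38.4 to 56.3 CPM in double KO and 24.6 to 31.8 CPM in Tgfbr1 KO, against 22.9 to 37.5 CPM in control gastrocnemius), and counts over a whole gene do not show the loss of single exons. Within their groups, 5 libraries stood apart from the rest (replicate 1 of double KO, Tgfbr1 KO and control in gastrocnemius, and of double KO and Acvr1b KO in soleus). Fits without these 5 libraries were chosen after seeing the data. Control gastrocnemius replicate 1 also had 25.99% of its counts on mitochondrially encoded genes, against 10.35% to 19.27% in the other gastrocnemius libraries.

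Of the 78 members, 77 passed the filter on low counts, with totals of 8119 to 148538 counts over all libraries. Mrpl53 did not pass, with 16 counts in all libraries together. Of its exon bases, 88% are shared on the same strand with the gene model Gm42688, so its own level was not measured. In control gastrocnemius, levels per kilobase spanned 66.1 ± 5.99 CPM per kb for Mrps21 (SD, n = 4) down to 1.61 ± 0.197 for Mrps35. Mrps21, Mrpl42 (40.2 ± 5.92) and Mrpl18 (38.1 ± 2.82) were the highest, and Mrpl12 came next with 36.3 ± 5.97, so that the order among Mrpl42, Mrpl18 and Mrpl12 lies within their spread. Mrps25 (2.76 ± 0.437), Mrps10 (2.27 ± 0.118) and Mrps35 were the lowest measured per kilobase. The length used is that of all annotated exons of a gene, 8631 bases for Mrps35 and 739 for Mrps21, so these ranks also depend on annotated length. The summed level of the members was 1964 ± 67.6 CPM in double KO, 2064 ± 93.1 in Acvr1b KO and 2114 ± 210 in Tgfbr1 KO gastrocnemius, against 2143 ± 131 in control gastrocnemius (SD, n = 4 each). In soleus it was 2274 ± 181 CPM in double KO, 2447 ± 216 in Acvr1b KO and 2366 ± 157 in Tgfbr1 KO, against 2398 ± 33.5 in control. Summed levels of the knockout groups overlapped those of control in both muscles, and gastrocnemius double KO (1887 to 2042 CPM) reached into the control range (2004 to 2256 CPM) with its highest library.

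In gastrocnemius of double KO mice, few mitoribosomal protein genes passed the test: the share that fell was near that of all genes, and the share that rose was smaller. In double KO against control gastrocnemius, 8 members fell and 3 rose among the 77 tested (quasi-likelihood test of edgeR, with p adjusted by Benjamini-Hochberg over all 17536 genes and a threshold of 0.05). The 11 called members are 14.3% of those tested, against 20.9% of all genes called in this comparison. In each direction, 10.4% of the members fell against 9.59% of all genes, and 3.90% rose against 11.4% of all genes. Log2 fold changes of the members ran from -0.51 to 0.45 with a median of -0.07, beside 0.00 over all genes. Of the members, 56 had a negative log2 fold change (72.7%, against 49.9% of all genes) and 21 a positive one. Only Mrpl42 exceeded 0.5 in size (1.30% of the members tested), a size exceeded by 21.2% of all genes. The interquartile range of the members was -0.18 to 0.01, inside that of all genes (-0.23 to 0.24). The median SE was 0.0978 among the members and 0.158 over all genes, so the wider spread over all genes includes more error. An unadjusted p below 0.05 was reached by 21 members, 17 lower and 4 higher (27.3% of those tested, against 33.8% of all genes). The count of 11 was 6 without double KO replicate 1 or control replicate 2 and 7 without double KO replicate 2 or 3, and leaving out single libraries left 0 to 2 rises. With no other groups in the fit the count of members was 5, all of them falls, beside 13.7% of all genes called.

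**Figure D1:**
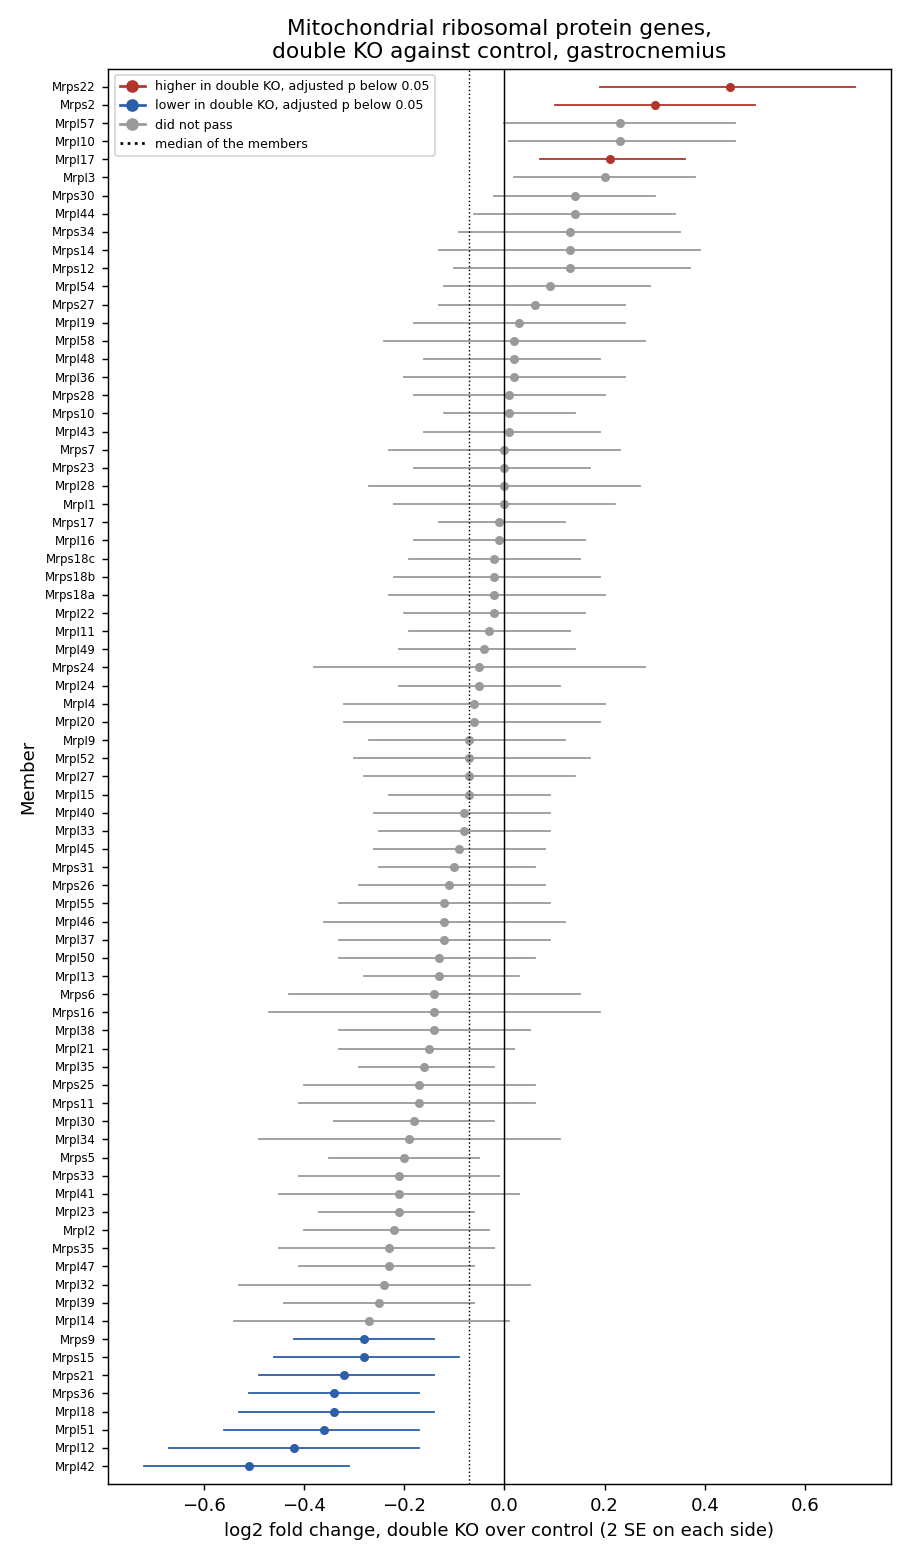
Log2 fold change of double KO over control in gastrocnemius for the 77 members tested (x axis), with bars of 2 SE on each side; members run down the y axis from the highest to the lowest value, n = 4 libraries a group. Blue marks the 8 members that fell and red the 3 that rose past the threshold, grey those that did not pass, and the dotted line the median of -0.07.

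The 8 that fell included 4 proteins of the large subunit. Mrpl42, a protein found only in mitochondrial ribosomes and the member with the most counts, had 94.1, 104, 103 and 110 CPM in double KO libraries, against 181, 137, 137 and 137 CPM in control libraries. It was lower in every double KO library than in every control library (log2 fold change -0.51, SE 0.102, edgeR adjusted p = 0.00181). Control replicate 1 was the highest of all, and without the 5 libraries that stood apart the log2 fold change was -0.37 (edgeR adjusted p = 0.000988). Mrpl12, which forms the mobile stalk that recruits translation factors, had 36.8, 40.4, 43.2 and 43.8 CPM in double KO, against 45.9, 61.6, 49.8 and 64.9 CPM in control. Its groups did not overlap, although control libraries differed among themselves by more than the gap between the groups (log2 fold change -0.42, SE 0.124, edgeR adjusted p = 0.0231). Mrpl51, another mitochondria-specific protein, had 55.0, 61.1, 65.0 and 67.6 CPM in double KO, against 83.9, 82, 73.5 and 82.8 CPM in control. All double KO libraries were lower than all control libraries (log2 fold change -0.36, SE 0.0978, edgeR adjusted p = 0.0145). Mrpl18, a member of the central protuberance, had 33.4, 43.2, 44.7 and 46.3 CPM in double KO, against 50, 57.5, 49.9 and 55.8 CPM in control. Double KO replicate 1 was the lowest, and the groups did not overlap (log2 fold change -0.34, SE 0.0971, edgeR adjusted p = 0.0212).

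The small-subunit proteins Mrps21, Mrps9 and Mrps15, all with bacterial counterparts, and Mrps36 made up the rest of those that fell. Mrps21, the member with the highest level per kilobase, had 37.6, 37.7, 39.6 and 40.8 CPM in double KO, against 53.3, 51.3, 43.3 and 47.4 CPM in control. The double KO libraries were close to each other and all below control (log2 fold change -0.32, SE 0.0885, edgeR adjusted p = 0.0179). Mrps9 had 25, 22.6, 23.1 and 24.1 CPM in double KO, against 30.2, 30.7, 26.5 and 28.8 CPM in control. The groups did not overlap (log2 fold change -0.28, SE 0.0699, edgeR adjusted p = 0.00869). Mrps15 had 30.5, 31.8, 30 and 32.9 CPM in double KO, against 46.7, 35.4, 34.6 and 36 CPM in control. Control replicate 1 was the highest, the groups did not overlap, and the call (log2 fold change -0.28, SE 0.0928, edgeR adjusted p = 0.0431) was lost in 9 of 15 alternative fits, among them the one without that library. Mrps36, the dehydrogenase component, had 15.5, 15.6, 14.7 and 16.9 CPM in double KO, against 21.4, 19.2, 18.1 and 21.3 CPM in control. All double KO libraries lay below all control libraries (log2 fold change -0.34, SE 0.0862, edgeR adjusted p = 0.0101). Mrps36 and Mrpl51 had fractional counts in all 32 libraries, which means that part of their reads also aligned elsewhere. The same held for Mrpl42 in 26 libraries, Mrps21 in 24, Mrpl12 in 14, Mrpl18 in 13 and Mrps15 in 2.

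The 3 that rose were Mrps22, Mrps2 and Mrpl17. Mrps22, a mitochondria-specific small-subunit protein whose mutation in humans causes mitochondrial disease, had 12.9, 16.5, 16.5 and 16.5 CPM in double KO, against 14.4, 9.84, 9.58 and 12.3 CPM in control. The groups overlapped through replicate 1 of each, both of them libraries that stood apart (log2 fold change 0.45, SE 0.129, edgeR adjusted p = 0.0214). Without the libraries that stood apart the log2 fold change was 0.65 (edgeR adjusted p = 0.000263), but that fit leaves out both libraries of the overlap. Mrps2, a conserved small-subunit protein, had 22.9, 19.9, 22.2 and 20.2 CPM in double KO, against 18.4, 18.2, 17.3 and 15.7 CPM in control. Every double KO library was higher than every control library (log2 fold change 0.30, SE 0.0998, edgeR adjusted p = 0.0391), but the call was lost in 8 of 15 alternatives. Mrpl17, a conserved large-subunit protein, had 32.3, 32.1, 34 and 32.1 CPM in double KO, against 25.8, 29.1, 29.7 and 29 CPM in control. The groups did not overlap, the change was the smallest among the 11 called members (log2 fold change 0.21, SE 0.0720, edgeR adjusted p = 0.0455), and the call was lost in 12 of 15 alternatives. Mrpl42, Mrpl51, Mrps21 and Mrps36 were called under all 15 alternatives, Mrps9 under all but 1, Mrpl18 under all but 3, Mrpl12 under all but 4 and Mrps22 under all but 6.

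**Figure D2:**
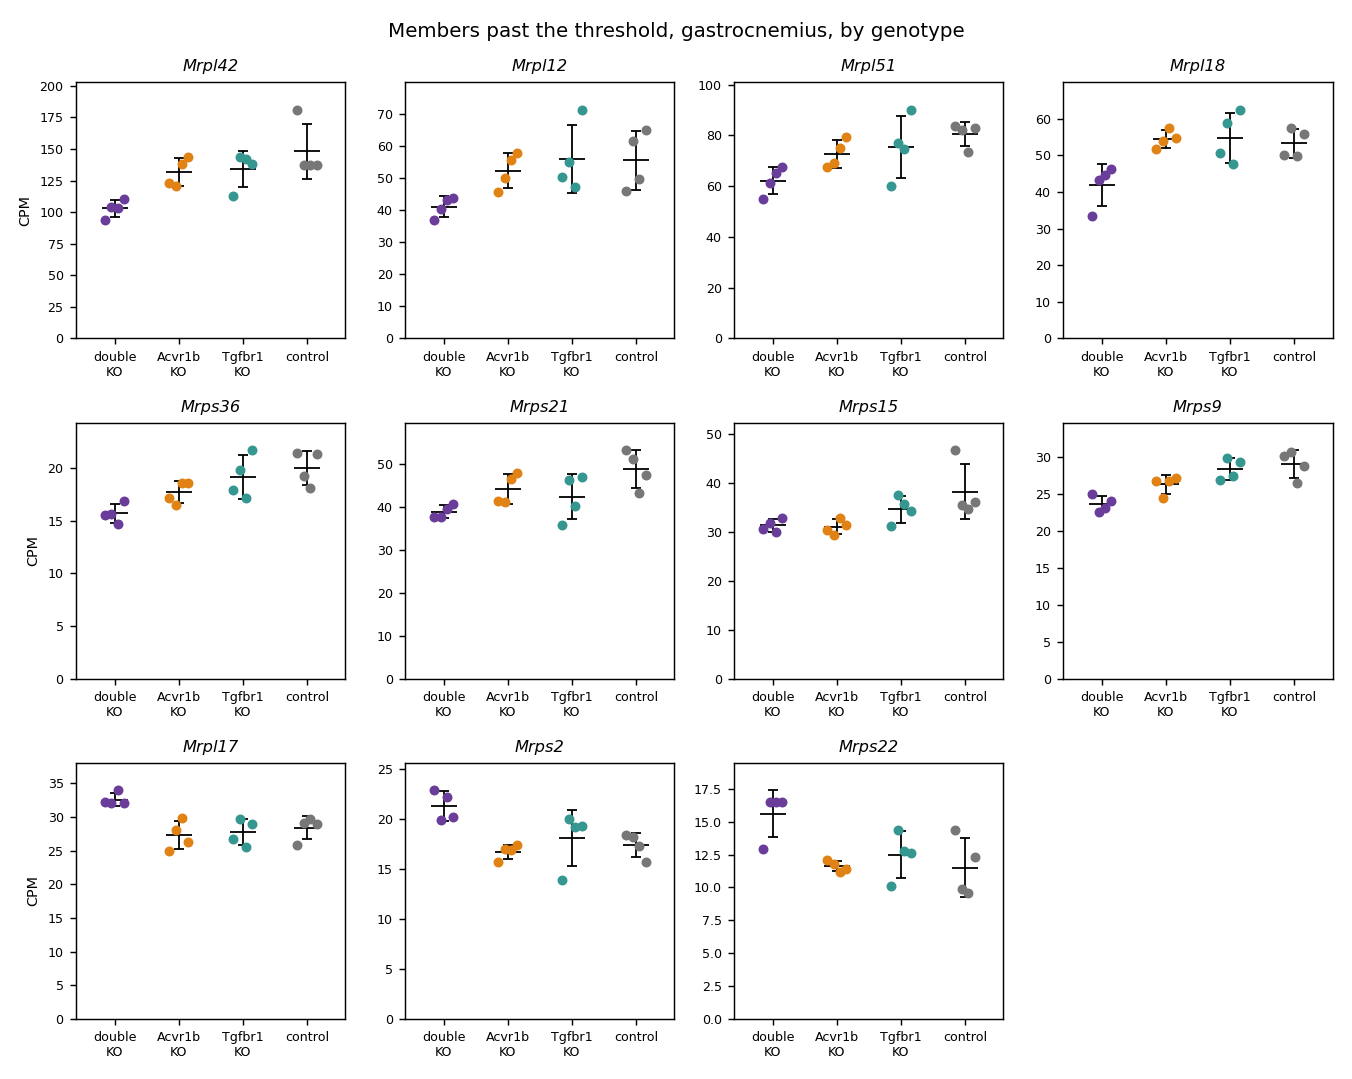
Level in CPM (y axis, from 0) of the 11 members past the threshold in double KO against control gastrocnemius, by genotype (x axis); points are libraries in the order of replicates 1 to 4, the long bar is the mean and the whiskers the SD, n = 4. Mrpl42 at 94.1 to 110 CPM in double KO lies below the other 3 genotypes, while Mrps22 and Mrpl17 lie mostly above them.

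On GRCm38, the 4 large-subunit genes that fell are Mrpl42 at chr10:95480805-95501940 (minus strand), Mrpl12 at chr11:120484613-120489065 (plus strand), Mrpl51 at chr6:125191801-125196269 (plus strand) and Mrpl18 at chr17:12911349-12916345 (minus strand). The other 4 that fell are Mrps21 at chr3:95862634-95871519 (minus strand), Mrps9 at chr1:42851233-42905683 (plus strand), Mrps15 at chr4:126046925-126055532 (plus strand) and Mrps36 at chr13:100735955-100744659 (minus strand). Those that rose are Mrps22 at chr9:98588730-98601660 (minus strand), Mrps2 at chr2:28468066-28471178 (plus strand) and Mrpl17 at chr7:105803206-105811099 (minus strand).

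Members were also split by subunit and by origin. Among large-subunit proteins 1 rose and 4 fell of 50 tested (median log2 fold change -0.07), and among small-subunit proteins 2 rose and 3 fell of 26 (median -0.04). Among proteins with a bacterial counterpart 2 rose and 5 fell of 45 (median -0.07), and among mitochondria-specific ones 1 rose and 2 fell of 31 (median -0.08). Of 6 members followed in every group for their roles, Mrpl12 fell and Mrps22 rose, as given above, and the other 4 did not pass. Mrpl3 had 37.1 ± 3.26 CPM in double KO and 32.7 ± 3.13 CPM in control, and Mrpl44 had 22.5 ± 1.29 CPM in double KO and 20.6 ± 3.05 CPM in control (SD, n = 4 each). Mrps16 had 13.6 ± 1.48 CPM in double KO and 15.1 ± 3.38 CPM in control, and Mrps34 had 27.8 ± 2.36 CPM in double KO and 25.7 ± 4.19 CPM in control. The libraries of these 4 genes overlapped between the groups. Mrps34 shares 37% of its exon bases with Nme3 on the same strand. Mrps30 (28.1 ± 1.84 CPM in double KO and 25.8 ± 0.927 in control) and Mrps18a (35.6 ± 3.74 CPM in double KO and 36.4 ± 5.88 in control) did not pass either.

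Cell type markers moved in the same comparison, in which 11.4% of all genes rose and 9.59% fell. The summed level of 7 myofibre markers was 115172 to 131463 CPM in double KO and 140168 to 168626 CPM in control gastrocnemius, and 4 of the 7 fell. That of 5 macrophage markers was 38.9 to 64.6 CPM in double KO and 27.9 to 32.2 CPM in control, and 4 of the 5 rose. Of the fibroblast markers 2 of 4 rose, 2 of 4 endothelial and 2 of 4 adipocyte markers fell, 1 of 2 satellite cell markers rose, and none of the Schwann cell or neutrophil markers passed. No marker of any list was at 0. The myofibre list holds the fast myosin Myh4 and the slow myosin Myh7, so its sum also depends on fibre type. In whole muscle, fewer cells of a type and less RNA per cell cannot be told apart, and the part of these shifts in the members' changes was not tested.

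Promoter sequences are printed for Mrpl42 and Mrpl51, which fell under every alternative, for Mrpl12, and for Mrps22, the member with the largest rise, so that the start regions of members that fell and of one that rose can be read side by side. RefSeq promoters (GRCm38.p6, 250 bases before to 50 after the start) were found for 69 of the 78 members. Each line runs 5′ to 3′ on the gene's strand from 250 bases before the start to base 30 of the transcript, and for Mrpl42 to base 35. Capitals mark 3 motifs on either strand: the NRF1-type motif (GCGCA and GCGC with any 1 base between), the ETS-type motif CCGGAAG and the YY1-type motif AANATGGC, each named for the factors known to bind such letters, and no marked motif overlaps another. The windows are chr10:95501915-95502199 (minus strand) for Mrpl42, chr6:125191950-125192229 (plus strand) for Mrpl51, chr11:120484387-120484666 (plus strand) for Mrpl12 and chr9:98601650-98601929 (minus strand) for Mrps22.
Mrpl42: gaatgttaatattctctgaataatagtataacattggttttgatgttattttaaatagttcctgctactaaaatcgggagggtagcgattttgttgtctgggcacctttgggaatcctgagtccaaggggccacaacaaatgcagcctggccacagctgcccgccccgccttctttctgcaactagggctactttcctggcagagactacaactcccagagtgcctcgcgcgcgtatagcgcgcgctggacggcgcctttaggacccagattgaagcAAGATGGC
Mrpl51: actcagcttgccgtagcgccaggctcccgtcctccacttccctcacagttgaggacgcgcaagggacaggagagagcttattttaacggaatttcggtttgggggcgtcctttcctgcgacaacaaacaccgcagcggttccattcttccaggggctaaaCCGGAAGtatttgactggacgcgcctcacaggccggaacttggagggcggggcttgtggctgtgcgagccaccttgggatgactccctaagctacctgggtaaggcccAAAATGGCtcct
Mrpl12: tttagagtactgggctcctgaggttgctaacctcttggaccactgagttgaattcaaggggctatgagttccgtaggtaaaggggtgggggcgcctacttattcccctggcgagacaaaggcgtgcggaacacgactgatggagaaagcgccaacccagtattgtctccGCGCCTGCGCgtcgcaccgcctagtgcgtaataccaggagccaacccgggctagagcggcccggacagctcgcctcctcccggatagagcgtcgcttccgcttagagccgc
Mrps22: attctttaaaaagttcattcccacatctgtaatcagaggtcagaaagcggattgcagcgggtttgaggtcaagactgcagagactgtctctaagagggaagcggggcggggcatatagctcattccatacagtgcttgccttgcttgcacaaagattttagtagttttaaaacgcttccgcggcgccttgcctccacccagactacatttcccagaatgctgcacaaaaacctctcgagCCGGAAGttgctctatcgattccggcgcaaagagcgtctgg
Mrpl42 held the YY1-type letters at base 28 after its start. Mrpl51 held the ETS-type letters 90 bases before its RefSeq start and the YY1-type letters at base 19 after it; that start lies 399 bases inside the GENCODE gene. Mrpl12 held the NRF1-type letters on the opposite strand, starting 81 bases before the start, and Mrps22 the ETS-type letters 11 bases before the start. Among the 69 members with a promoter, 26 held CCGGAAG (37.7%, against 9.9% of 27025 genes of the promoter table), 21 held AANATGGC (30.4% against 7.0%) and 13 held the NRF1-type motif (18.8% against 5.2%). A further 3 motifs were searched on both strands. CCAAT was found in 39.1% of the members and 41.1% of all genes, CACGTG in 7.2% and 8.1%, and TATAAA in 7.2% and 15.7%. Of the 8 members that fell in double KO gastrocnemius, 3 held the NRF1-type, 3 the ETS-type and 3 the YY1-type motif, and of the 3 that rose, 1 held the NRF1-type, 2 the ETS-type and 0 the YY1-type motif. These matches describe letters in a window and are no measurement of binding.

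Many mitoribosomal protein genes lie head to head with another gene. In GENCODE M21, 18 of the 78 members (23.1%) have a protein-coding gene on the other strand that starts within 1000 bases, against 6.77% of all protein-coding genes. Of the 11 called members only Mrpl51 is one of these. Its neighbour Ncapd2, a condensin subunit whose start lies 100 bases from that of the Mrpl51 gene, had a log2 fold change of 0.18 in double KO against control gastrocnemius (SE 0.144, edgeR adjusted p = 0.401), while Mrpl51 fell. Neighbours that fell were Zfp189 (-0.65, adjusted p = 0.0102), Ppp1r10 (-0.60, adjusted p = 0.0472) and Fau (-0.27, adjusted p = 0.0380), next to Mrpl50 (-0.13, adjusted p = 0.364), Mrps18b (-0.02, adjusted p = 0.931) and Mrpl49 (-0.04, adjusted p = 0.788), none of which passed.

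In gastrocnemius of the single knockouts no member passed the threshold. In Acvr1b KO against control, 0 of 77 members were called by edgeR and by DESeq2, beside 0.0285% of all genes by edgeR. An unadjusted p below 0.05 was reached by 1 member (1.30% of those tested, against 4.42% of all genes), Mrps15 (log2 fold change -0.30, SE 0.0929, edgeR adjusted p = 0.856). It had 30.4, 29.3, 32.9 and 31.4 CPM in Acvr1b KO, against 46.7, 35.4, 34.6 and 36 CPM in control, and the groups did not overlap. In Tgfbr1 KO against control, 0 members were called by edgeR and by DESeq2, beside 0.171% of all genes by edgeR. Here 1 member had an unadjusted p below 0.05 (1.30% of those tested, against 6.00% of all genes), Mrps21 (log2 fold change -0.20, SE 0.0886, edgeR adjusted p = 0.778). Mrps21 had 35.9, 46.2, 40.3 and 47.1 CPM in Tgfbr1 KO, against 53.3, 51.3, 43.3 and 47.4 CPM in control, and the groups overlapped.

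The double KO was also set against each single knockout in gastrocnemius. Against Acvr1b KO, 7 members were called (9.09% of those tested, against 16.3% of all genes), 3 higher (3.90% against 9.20% of all genes) and 4 lower (5.19% against 7.05%). Mrpl18 (-0.37, SE 0.0971, adjusted p = 0.0151), Mrpl42 (-0.35, SE 0.102, adjusted p = 0.0277), Mrpl47 (-0.28, SE 0.0879, adjusted p = 0.0354) and Mrpl23 (-0.25, SE 0.0767, adjusted p = 0.0346) fell. Mrps22 (0.43, SE 0.129, adjusted p = 0.0298), Mrps2 (0.36, SE 0.1, adjusted p = 0.0204) and Mrpl17 (0.27, SE 0.0721, adjusted p = 0.0176) rose. Mrpl42 had 123, 121, 138 and 144 CPM in Acvr1b KO and Mrpl18 51.6, 53.9, 57.3 and 54.8 CPM, in both cases above every double KO library. The call for Mrpl23 was lost in 8 of 15 alternatives, Mrpl47 in 7, Mrps22 in 6, Mrpl42 in 5, Mrps2 in 4, Mrpl17 in 4 and Mrpl18 in none. Mrpl23 and Mrpl47 lie at the exit of the ribosomal tunnel, where the new chain leaves for the inner membrane.

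Against Tgfbr1 KO, 6 members were called (7.79% of those tested, against 12.9% of all genes), 1 higher (1.30% against 7.44% of all genes) and 5 lower (6.49% against 5.42%). Mrpl12 (-0.43, SE 0.124, adjusted p = 0.0297), Mrpl18 (-0.38, SE 0.0972, adjusted p = 0.0173), Mrpl42 (-0.37, SE 0.102, adjusted p = 0.0236), Mrps36 (-0.28, SE 0.0867, adjusted p = 0.0444) and Mrps9 (-0.25, SE 0.0702, adjusted p = 0.0280) fell, and Mrpl17 rose (0.24, SE 0.0723, adjusted p = 0.0352). Mrpl42 had 113, 144, 142 and 138 CPM in Tgfbr1 KO, above every double KO library. Of these calls against Tgfbr1 KO, that of Mrpl17 was lost in 10 of 15 alternatives, Mrps36 in 8, Mrps9 in 7, Mrpl12 in 5, Mrpl42 in 4 and Mrpl18 in 3. These comparisons share the double KO libraries with the one against control. Leaving out single libraries of the compared groups in turn moved the counts to between 1 and 5 members against Acvr1b KO and between 1 and 8 against Tgfbr1 KO. The share of all genes called was then 11.6% to 16.6% against Acvr1b KO and 8.57% to 11.8% against Tgfbr1 KO.

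In soleus no member passed in any genotype comparison. In double KO against control soleus, 0 of 77 members were called by edgeR and by DESeq2, beside 0.722% of all genes by edgeR, with a median log2 fold change of -0.05 among members and 0.04 over all genes. Only Mrps2 had an unadjusted p below 0.05 (1.30% of the members tested, against 12.2% of all genes). It had 25.9, 18, 20 and 20.6 CPM in double KO, against 16.1, 18.6, 15.9 and 19.4 CPM in control. Its groups overlapped (log2 fold change 0.28, SE 0.127, edgeR adjusted p = 0.380). The next smallest p-values were those of Mrps27 (0.19, adjusted p = 0.436), Mrpl28 (-0.30, adjusted p = 0.458), Mrpl33 (-0.20, adjusted p = 0.562), Mrpl10 (0.15, adjusted p = 0.566) and Mrpl14 (-0.23, adjusted p = 0.571).

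Soleus double KO replicate 1 differed from its group for many members. Mrpl42 had 70.1 CPM in it and 123, 126 and 124 CPM in the other 3 double KO libraries, against 131, 127, 134 and 122 CPM in control. Mrpl18 had 26.5 CPM in it and 65.7, 72.5 and 68.4 CPM in the other 3, against 71.5, 72.8, 71.2 and 71.1 CPM in control. The other 3 double KO libraries overlapped control for Mrpl42 and for Mrpl18. That library also had the lowest summed myofibre markers in soleus, 39829 CPM, against 58023 to 70308 CPM in control, and the part of this in the members' values was not tested. Acvr1b KO and Tgfbr1 KO against control had 0 members called by edgeR and by DESeq2 (beside 0.0220% and 0.0496% of all genes by edgeR) and 0 with an unadjusted p below 0.05 (beside 1.95% and 2.26% of all genes). Double KO against Acvr1b KO and against Tgfbr1 KO also had 0 called by both tools (beside 0.127% and 0.0496% of all genes by edgeR). Of the 77 members tested, 2 and 0 had an unadjusted p below 0.05, beside 11.2% and 9.13% of all genes.

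Whether the double KO effect differed between the muscles was tested as an interaction over all 32 libraries. By edgeR and by DESeq2 0 of 77 members were called, beside 0.732% of all genes by edgeR (137 genes), and 0 had an unadjusted p below 0.05 (beside 8.82% of all genes). With the animal as a block the number of genes called was 258 and that of members 0. Without the 5 libraries that stood apart, 2 members were called, 2.6% of those tested beside 2.54% of all genes (478), a share near the background. Mrpl42 had a difference of 0.32 (soleus minus gastrocnemius, log2, SE 0.0814, edgeR adjusted p = 0.0325) and Mrps22 one of -0.52 (SE 0.138, edgeR adjusted p = 0.0463). With all libraries the difference was 0.31 (SE 0.179, edgeR adjusted p = 0.666) for Mrpl42 and -0.33 (SE 0.170, edgeR adjusted p = 0.599) for Mrps22. In soleus, Mrps22 had 11.9, 12.5, 12.6 and 12.8 CPM in double KO, against 11.8, 13.5, 9.34 and 11.8 CPM in control.

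**Figure D3:**
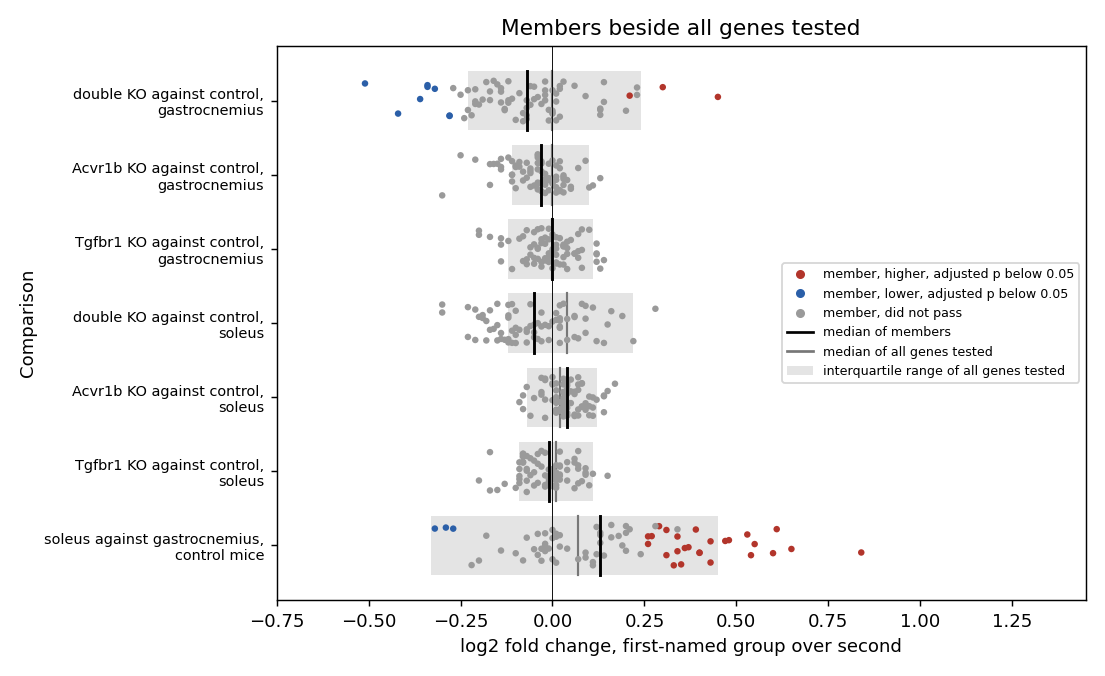
Log2 fold change (x axis) of the 77 members tested in 7 comparisons (y axis), each a point, with the median of the members (black line), the median of all genes tested (grey line) and the interquartile range of all genes (grey bar). Coloured points passed the threshold: 8 lower and 3 higher in double KO against control gastrocnemius, 26 higher and 3 lower in soleus against gastrocnemius, and none in the other 5.

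Between soleus and gastrocnemius of control mice, 26 members were higher in soleus and 3 were lower among the 77 tested (edgeR, adjusted over 18726 genes). The share called in either direction was 37.7%, against 40.4% of all genes. In each direction, 33.8% of the members were higher in soleus, against 20.5% of all genes, and 3.90% lower, against 20%. The median log2 fold change was 0.13 among members and 0.07 over all genes, and the range -0.32 to 0.84. Members past 0.5 in size numbered 7, while 41.1% of all genes exceeded that size. Of the large-subunit members 19 were higher and 2 lower (median 0.17, 50 tested), and of the small-subunit members 7 were higher and 1 lower (median 0.11, 26 tested).

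Mrpl14, which lies at the interface between the subunits, had 51.7, 47.9, 57.6 and 56.2 CPM in soleus, against 20.7, 35, 29.7 and 33.7 CPM in gastrocnemius. It had the highest fold change of the members, with no overlap (log2 fold change 0.84, SE 0.15, edgeR adjusted p = 4.31e-05). Mrpl28, a conserved large-subunit protein, had 36.2, 38.9, 42.0 and 39.7 CPM in soleus, against 17.3, 28.2, 23.3 and 30.9 CPM in gastrocnemius. Gastrocnemius replicate 1 was the lowest for both genes, and the groups did not overlap (Mrpl28 log2 fold change 0.65, SE 0.153, edgeR adjusted p = 0.00103). Mrpl3, one of the proteins nearest the catalytic centre, had 51.9, 50.9, 45.7 and 49.6 CPM in soleus, against 28.3, 33, 33.9 and 35.6 CPM in gastrocnemius. Every soleus library was higher (log2 fold change 0.60, SE 0.107, edgeR adjusted p = 4.70e-05).

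Mrps9 had the smallest adjusted p among the members, 2.35e-06 by edgeR, with 42.1, 41.4, 40.0 and 45.9 CPM in soleus, against 30.2, 30.7, 26.5 and 28.8 CPM in gastrocnemius (log2 fold change 0.54, SE 0.0789). Mrpl33 (0.61, SE 0.107), Mrps35 (0.55, SE 0.137), Mrpl41 (0.53, SE 0.126) and Mrpl47 (0.48, SE 0.125) were also higher in soleus, with no overlap between the muscles. Mrps35, the lowest measured member per kilobase in gastrocnemius, had 18.9 to 21.8 CPM in soleus and 12.4 to 16.3 CPM in gastrocnemius. The 3 members lower in soleus were Mrps21 (-0.32, SE 0.113, adjusted p = 0.0254), Mrpl23 (-0.29, SE 0.113, adjusted p = 0.0416) and Mrpl50 (-0.27, SE 0.0891, adjusted p = 0.0174). With the animal as a block, which pairs the muscles of a mouse, 29 members were higher and 2 lower, beside 45.6% of all genes called. The call for Mrpl23 was lost in that fit, as it was in 7 of 15 alternatives in all. Mrps21 had 38.5, 37.2, 43.6 and 37.5 CPM in soleus, against 53.3, 51.3, 43.3 and 47.4 CPM in gastrocnemius, and its groups overlapped through replicate 3 of each. Per kilobase, Mrps21 stood at 53.0 CPM in soleus and Mrpl14 at 56.2, against 66.1 and 31.4 in gastrocnemius.

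The count of members called was 19 without gastrocnemius control replicate 1 (beside 34.6% of all genes) and 18 without soleus control replicate 2 (beside 38.3%). Summed myofibre markers were 58023 to 70308 CPM in soleus and 140168 to 168626 CPM in gastrocnemius. Of the 7, 3 were lower in soleus, among them the fast myosin Myh4 (1831 ± 1286 CPM in soleus and 78068 ± 11571 CPM in gastrocnemius), and 2 were higher, the slow myosin Myh7 (log2 fold change 3.37) and Myh2 (0.98). Summed endothelial markers were 246 to 318 CPM in soleus and 174 to 190 CPM in gastrocnemius. All 4 adipocyte markers were higher in soleus, at a summed 12.5 to 51.5 CPM against 6.14 to 14.6 CPM in gastrocnemius. The part of these marker shifts in the members' difference was not tested.

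**Figure D4:**
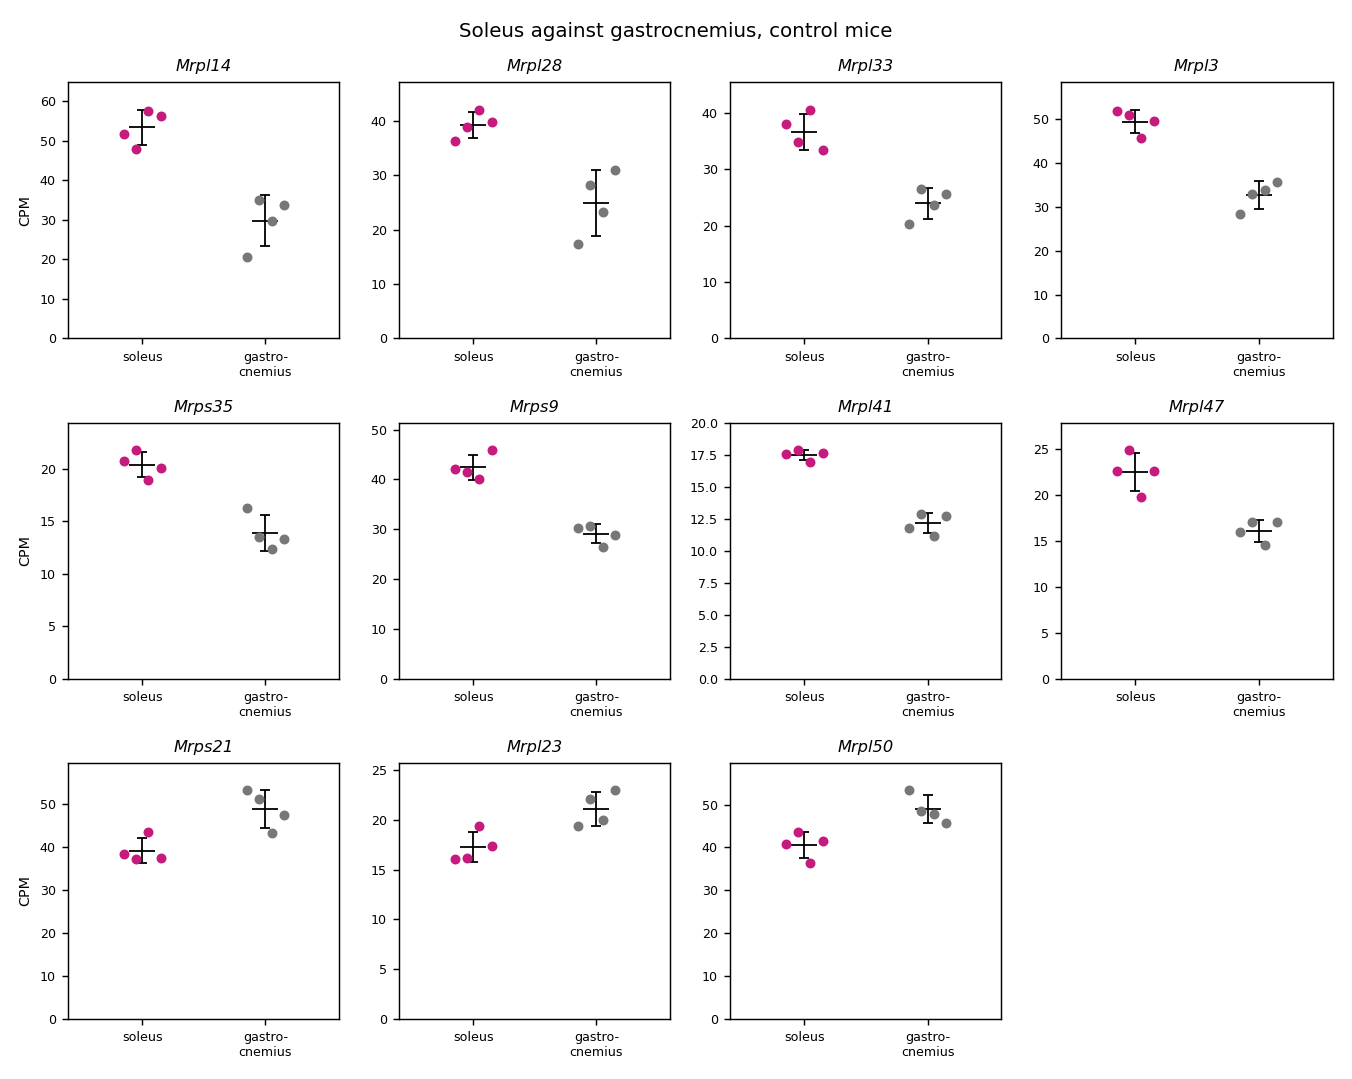
Level in CPM (y axis, from 0) of the 8 members with the largest rise and the 3 that were lower in soleus against gastrocnemius of control mice (x axis); points are libraries, the long bar is the mean and the whiskers the SD, n = 4. For Mrpl14 the soleus libraries lie at 47.9 to 57.6 CPM, all above the gastrocnemius libraries at 20.7 to 35 CPM.

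The muscle comparison and double KO against control gastrocnemius share the control gastrocnemius libraries, so their values are only set side by side. Mrps9 had a log2 fold change of -0.28 in double KO and 0.54 in soleus, Mrpl18 of -0.34 in double KO and 0.43 in soleus, and Mrps21 of -0.32 in both. The soleus call for Mrpl18 (edgeR adjusted p = 0.0491) was lost in 11 of 15 alternatives, among them DESeq2 and each left-out library.

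Genes that work with the mitoribosome were taken from lists. Beside them, 11.4% of all genes rose and 9.59% fell in double KO against control gastrocnemius. Of 5 further mitoribosome proteins with other symbols, none passed in double KO against control gastrocnemius. Of 28 genes for mitoribosome assembly and rRNA modification, 2 rose and 1 fell. Those that rose were Tfb1m (6.25 ± 0.796 CPM in double KO and 4.65 ± 0.336 in control, log2 fold change 0.44, edgeR adjusted p = 0.00520), the methyltransferase of the small-subunit rRNA, and Ddx28 (0.40, edgeR adjusted p = 0.0383), a helicase of large-subunit assembly. Spg7, part of the protease that matures Mrpl32, fell (-0.29, edgeR adjusted p = 0.0113). Of 16 translation factors, Mto1, a tRNA-modifying enzyme, rose (0.25, edgeR adjusted p = 0.0286), while Oxa1l, which inserts new chains into the inner membrane (-0.31, edgeR adjusted p = 0.0228), and Gfm2, which recycles ribosomes (-0.26, edgeR adjusted p = 0.00435), fell.

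Of 20 genes for mitochondrial aminoacyl-tRNA synthesis, only Gatb rose (0.31, edgeR adjusted p = 0.0152) and none fell. Of 19 for mitochondrial transcription and RNA handling, 3 rose and none fell: Pde12 (0.45, edgeR adjusted p = 0.00537), Mterf2 (0.41, edgeR adjusted p = 0.00996) and Elac2 (0.30, edgeR adjusted p = 0.0425). Of 12 regulators of mitochondrial gene programmes, 4 fell and none rose, beside 9.59% and 11.4% of all genes. Ppara, a nuclear receptor of fatty acid oxidation, had 8.65 ± 2.5 CPM in double KO and 21.4 ± 6.88 in control (log2 fold change -1.29, edgeR adjusted p = 0.00121). Ppargc1a, which encodes the coactivator PGC-1 alpha, had 27 ± 1.86 CPM in double KO and 57.0 ± 16.5 in control (log2 fold change -1.07, edgeR adjusted p = 0.000575). Esrrb (-0.57, edgeR adjusted p = 0.0337) and Esrrg (-0.54, edgeR adjusted p = 0.00509), oestrogen-related receptors, fell as well. The falls of Ppara and Ppargc1a were larger than that of any member. In soleus double KO against control, Ppara was the only gene of these lists that passed, beside 0.722% of all genes. It had 20 ± 6.57 CPM in double KO and 40.4 ± 9.86 in control (log2 fold change -1.01, edgeR adjusted p = 0.0404). Between the muscles of control mice, 3 of the 12 regulators were higher and 1 lower in soleus, beside 20.5% and 20% of all genes. Esrrb (2.36, edgeR adjusted p = 2.90e-08), Esrrg (1.59, edgeR adjusted p = 0.000297) and Ppara (0.91, edgeR adjusted p = 0.00315) were higher, and Yy1 was lower (-0.25, edgeR adjusted p = 0.00945).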

How the data were processed

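PolyA RNA of 32 whole muscles was sequenced. The authors deposited 1 table of estimated counts per gene. Per the file headers and the submitters' processing notes, reads were aligned to GRCm38 with HISAT2 and counted with featureCounts 2.0.1 on the reverse strand, with multi-mapping reads shared as fractions, so counts need not be whole; trimming used cutadapt. Counts were rounded here, and identifiers were mapped with GENCODE M21 (55227 of 55487).

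Genotypes were compared within each muscle, and muscles over both, with edgeR 4.0.16 (R 4.3.3): TMM scaling, filterByExpr, robust quasi-likelihood fit, Benjamini-Hochberg adjustment over all genes tested and a threshold of 0.05. Printed levels use TMM factors over the 32 libraries, whereas genotype tests use factors within a muscle. Fits were tested on simulated data. Alternatives were DESeq2 1.42.0, other scaling, no filter, fewer groups, no mitochondrially encoded genes, replicate blocks and left-out libraries. No 2 libraries held identical values. Per the labels, libraries of 1 muscle come from separate mice; tests over both muscles use 2 libraries of each mouse, as independent unless the animal is a block.

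The labels do not say that replicate numbers pair mice of different genotypes. Deviations of libraries with the same number had a mean correlation of 0.003 in gastrocnemius (-0.180 to 0.261) and -0.044 in soleus (-0.241 to 0.127, 24 pairs each). Such a mean cannot exclude a shared effect whose direction differs between groups, and all libraries that stood apart were replicate 1. Muscles of 1 mouse are paired by the animal number in the labels (mean correlation 0.177, range 0.034 to 0.579, 16 pairs). Double KO mice had 0.241 to 0.579, the highest in replicate 1, whose libraries stood apart in both muscles. Named members were all those called in a comparison up to 12, otherwise the 8 largest rises and 8 largest falls, the 6 smallest p-values in double KO against control where fewer than 6 were called, the 3 highest and 3 lowest by level, and 9 members named for role or symbol. Members and lists were chosen with earlier results of these data known. No protein sequences were used here.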

Additional observations from a re-analysis of the deposited data

Results flagged for a closer look

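In 28 of 144 groups of 4 libraries checked (17 members and their summed level), 1 library lay far from the other 3 by Dixon's criterion, which chance gives in about 1 group in 20. Most of these libraries were replicate 1 of their group.

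Soleus Acvr1b KO replicate 1 stood out most often. In CPM it had 90.7 for Mrpl12 (67.8 to 68.6 in the other 3 libraries), 95.2 for Mrpl51 (73.8 to 75.9), 23.3 for Mrps36 (19.6 to 19.8), 56.0 for Mrps21 (37.7 to 39.5) and 48.7 for Mrps9 (40.0 to 41.4). It had 43.9 for Mrps15 (31.2 to 32.9), 29.7 for Mrpl17 (26.7 to 26.9), 34.1 for Mrps30 (30.2 to 30.5) and 60.7 for Mrps18a (44.4 to 46.0), but only 14.5 for Mrps2 (18.7 to 19.1). The summed level of the members was 2770 CPM in it and 2314 to 2358 CPM in the other 3. Summed cell type markers also stood apart in it: fibroblast 147 CPM (521 to 597 in the other 3), macrophage 14.3 (39.4 to 50.5), adipocyte 8.16 (25.8 to 66.3) and endothelial 420 (263 to 294). Their part in the values of the members was not tested.

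Soleus double KO replicate 1 was the lowest of its group for Mrpl42 with 70.1 CPM (123 to 126 in the other 3), Mrpl51 with 49.3 (70.2 to 73.3), Mrps36 with 10.9 (19.3 to 20.8), Mrpl18 with 26.5 (65.7 to 72.5) and Mrpl3 with 34.7 (51.2 to 54.1). Soleus Tgfbr1 KO replicate 1 was the lowest for Mrpl18 with 59.3 CPM (72.7 to 73.5), Mrps34 with 25.3 (30.6 to 31.7) and the summed level with 2132 (2414 to 2460). In control soleus, replicate 4 had 28 CPM of Mrpl17 (27.3 to 27.4) and replicate 2 had 34 CPM of Mrps30 (31.2 to 31.4).

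In gastrocnemius, double KO replicate 1 had 12.9 CPM of Mrps22 (16.5 in each of the other 3) and double KO replicate 3 had 34 CPM of Mrpl17 (32.1 to 32.3). Acvr1b KO replicate 2 had 24.5 CPM of Mrps9 (26.8 to 27.2), and Tgfbr1 KO replicate 1 had 13.9 CPM of Mrps2 (19.2 to 20). Control replicate 1 had 181 CPM of Mrpl42 (137 in each of the other 3), 46.7 CPM of Mrps15 (34.6 to 36) and 10.1 CPM of Mrps16 (16.4 to 17.2).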

How the results depend on the processing

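The number of members called in double KO against control gastrocnemius was 11, and 5 when the fit held no other groups. There 2330 genes (13.7% of all) were called in place of 3673 (20.9%). Leaving out single libraries gave 6 to 13, with 6 without double KO replicate 1 or control replicate 2 and 7 without double KO replicate 2 or 3. Against Acvr1b KO the count was 7, beside 16.3% of all genes called, and 4 with no filter on low counts, beside 7.51%. Leaving out libraries gave 1 to 5 members, the lowest without double KO replicate 3, beside 11.6% to 16.6% of all genes. Against Tgfbr1 KO it was 6, beside 12.9% of all genes called. It was 3 under no filter, beside 5.50%, and 2 when the fit held no other groups, beside 9.47%. Leaving out libraries gave 1 to 8 members, beside 8.57% to 11.8% of all genes, with 1 without double KO replicate 3 or Tgfbr1 KO replicate 2 or 4. Between the muscles of control mice it was 29, and 19 with no filter; leaving out libraries gave 18 to 28. The interaction called 0 members, and 2 without the libraries that stood apart, an alternative chosen after seeing the data. The causes of these shifts were not tested. With the replicate number as a block, 11 members were called in double KO against control gastrocnemius, 10 against Acvr1b KO and 6 against Tgfbr1 KO. With the animal as a block 31 were called between the muscles. Beside these counts, in the same order, 20.7%, 16.7%, 12.5% and 45.6% of all genes were called. In soleus, 0 members were called in each genotype comparison under every alternative run. Over the 11 members called in double KO against control gastrocnemius and 15 alternatives each, the call was kept in 122 of 165 cases and lost in 43. Named members not called there gained a call in 8 cases, and no called member changed direction. Rounded fractional counts and shared exons limit Mrps36, Mrpl51 and Mrps34 beyond depth, and fractional counts in part of the libraries limit other called members, among them Mrpl42 and Mrps21.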
